A study of Mus musculus with 35 samples.

Results

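Glycolysis turns glucose into pyruvate, and several of its steps are run in sperm by proteins from other genes than in the rest of the body. The 9 genes described here encode the enzymes of 3 such steps in mouse, and they were chosen by name from a table of 55356 genes. Aldolase splits fructose bisphosphate, and its genes here were *Aldoa*, which muscle and most other cells use, *Aldoc*, known from brain, and the retrogenes *Aldoart1* and *Aldoart2*, which are intronless copies of *Aldoa*. Glyceraldehyde-3-phosphate dehydrogenase (GAPDH) came from the somatic gene *Gapdh* and from *Gapdhs*, whose protein is anchored in the sperm flagellum. Lactate dehydrogenase (LDH) interconverts pyruvate and lactate as a tetramer of subunits from *Ldha* (muscle type), *Ldhb* (heart type) and *Ldhc* (testis and sperm). Sperm draw on glycolysis along the flagellum, and the muscle and heart subunits of LDH are the textbook case of tissue isozymes.

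RNA-seq had been made from brain, cerebellum, heart, colon and gonad of adult C57BL/6J mice of both sexes, without any treatment or engineered allele, in a study of pseudogene transcription. The 10 groups of tissue and sex held 3 libraries each except male heart, which had 2, and 29 libraries were used. The labels do not say whether the libraries of a group came from separate animals, so the p-values measure the spread between libraries, which may be technical. They also do not say whether the brain samples included the cerebellum. Whole tissue was sequenced, so more RNA per cell and more cells of a type cannot be told apart in any level below. Total counts per library ran from 11742417 to 36194255 with a median of 24403774.

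Marker lists were checked against the labels, and 1 of those for the gonads did not follow its tissue. The 4 oocyte markers summed to 27.3 to 53.4 FPKM in ovary and to 127 to 241 in heart, while 4 granulosa cell markers summed to 111 to 183 in ovary and at most 9.70 elsewhere. The summed FPKM of 7 markers of haploid germ cells, which become sperm, was 22554 to 26815 in testis and at most 32.9 in any other library. FPKM here is the usual count scaled to the library total and to the length of the locus's exons in kilobases. Female heart replicate 3 stood apart from the other hearts. Its summed FPKM of 3 fat cell markers was 813, against 0.0830 to 2.27 in the other 4 heart libraries, and that of 5 cardiomyocyte markers was 8226, against 16054 to 18579. The main levels, shares and family sums in heart are therefore given with and without it, while the values of the other pathway genes include it. Red cell markers also set heart apart: 4 of them summed to 6640 to 23398 FPKM in heart, with the lowest in that library, against 329 to 1618 in brain, 1572 to 3381 in cerebellum and 24.7 to 85.6 in colon. None of the 4 was at 0 in any of these tissues.

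The loci of the 9 genes were counted on Iso-seq models, that is on long reads of whole transcripts, and 2 of them joined other genes. *Ldha* (chr7:46841475-46855627, plus strand) and *Ldhc* (chr7:46861203-46878142, plus strand) lie side by side. *Gapdhs* (chr7:30729775-30743681, minus strand) was counted in a locus that also held *Tmem147*, a broadly used membrane protein gene on the same strand, and 51.8% of the locus's 3106 exon bases lay in *Gapdhs* exons. *Aldoc* (chr11:78322968-78327781, plus strand) was counted in a locus that joined 8 genes, among them *Spag5*, *Rab34* and *Sdf2*, and 13.4% of its 22549 exon bases lay in *Aldoc* exons. Values of those 2 are values of the locus, and the part of the neighbours in them was not tested. *Ldhb* (chr6:142490249-142507957, minus strand) had a locus of its own, but 21.1% of its 6099 model bases lay in annotated exons. *Gapdh* (chr6:125161715-125166467, minus strand) and *Aldoa* (chr7:126795234-126800751, minus strand) had loci of 3086 and 2934 exon bases, *Aldoart1* (chr4:72850583-72852634, minus strand) of 2020 and *Aldoart2* (chr12:55565239-55566896, plus strand) of 1680. All coordinates are on GRCm38. Because a level per length depends on that length, shares are also given on the length of each gene's principal GENCODE transcript, from 1304 bases for *Ldhb* to 2786 for *Aldoc*.

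The sequences show how far short reads can tell these genes apart. The aldolase retrogenes are near copies, and the stretches of their reading frames that align with the start of the *Aldoa* frame are printed for that reason (GENCODE M21 principal transcripts, 90 bases each), with capitals for the bases that differ from *Aldoa*.
Aldoa: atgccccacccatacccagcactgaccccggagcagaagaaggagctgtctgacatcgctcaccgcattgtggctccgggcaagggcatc
Aldoart1: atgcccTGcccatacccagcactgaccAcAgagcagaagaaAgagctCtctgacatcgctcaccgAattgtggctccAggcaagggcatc
Aldoart2: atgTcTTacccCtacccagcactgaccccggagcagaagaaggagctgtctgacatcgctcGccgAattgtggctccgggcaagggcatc
*Aldoart1* differed at 8 of these 90 bases and *Aldoart2* at 6. Over the 1095 aligned bases of the whole frames, *Aldoart1* was 94.25% and *Aldoart2* 91.6% identical to *Aldoa*. For *Aldoc* it was 75.89% of 1091 aligned bases. The frames of *Ldha* and *Ldhc* were 73.75% identical and those of *Gapdh* and *Gapdhs* 72.42%. Of the 50-base windows of each principal transcript, 82.49% of *Gapdh* were also found exactly in a transcript of another gene (222 genes, led by *Gm7336*), 27.01% of *Ldhb* (all in *Gm5514*), 17.12% of *Ldha*, 13.89% of *Aldoa*, 5.80% of *Aldoart1*, 2.81% of *Gapdhs* and 0.311% of *Aldoart2*. None of *Ldhc* and *Aldoc* were. With 100-base windows *Gapdh* kept 78.05%, *Ldhb* 8.80% and *Ldha* 1.32%, and the other 6 genes had 0. By the study's methods only uniquely mapped reads were kept, and how many reads of *Gapdh* were left out for this was not tested.

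The promoters of 3 genes that were high in testis, and that of *Ldha* next to *Ldhc*, are shown to describe the sequence at the start of these genes, and no relation to their levels was tested. Each window holds 300 bases, 250 of them before the annotated start site (RefSeq, GRCm38.p6, strand of the gene). Capitals mark the cyclic AMP response element (CRE) TGACGTCA or its shorter form TGACG, the GC box GGGCGG in *Ldhc* and the CCAAT box in *Aldoart2*.
Ldhc, chr7:46861013-46861312: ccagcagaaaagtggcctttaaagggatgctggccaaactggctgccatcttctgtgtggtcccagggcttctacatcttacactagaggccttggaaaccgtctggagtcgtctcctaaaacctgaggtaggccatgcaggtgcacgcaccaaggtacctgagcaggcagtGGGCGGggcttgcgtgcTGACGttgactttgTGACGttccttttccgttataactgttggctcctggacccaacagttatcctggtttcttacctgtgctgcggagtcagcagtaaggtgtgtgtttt
Gapdhs, chr7:30743632-30743931: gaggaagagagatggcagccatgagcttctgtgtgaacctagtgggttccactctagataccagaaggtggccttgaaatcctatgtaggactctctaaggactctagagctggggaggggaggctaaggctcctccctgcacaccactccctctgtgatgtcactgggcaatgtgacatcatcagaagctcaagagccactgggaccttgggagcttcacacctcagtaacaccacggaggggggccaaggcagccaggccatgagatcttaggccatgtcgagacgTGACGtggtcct
Aldoart2, chr12:55564955-55565254: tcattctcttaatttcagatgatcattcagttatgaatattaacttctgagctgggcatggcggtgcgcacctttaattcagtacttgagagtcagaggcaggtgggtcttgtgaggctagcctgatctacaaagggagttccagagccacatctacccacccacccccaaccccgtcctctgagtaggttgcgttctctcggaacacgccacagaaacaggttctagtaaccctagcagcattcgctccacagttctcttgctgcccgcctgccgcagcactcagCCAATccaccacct
Ldha, chr7:46845554-46845853: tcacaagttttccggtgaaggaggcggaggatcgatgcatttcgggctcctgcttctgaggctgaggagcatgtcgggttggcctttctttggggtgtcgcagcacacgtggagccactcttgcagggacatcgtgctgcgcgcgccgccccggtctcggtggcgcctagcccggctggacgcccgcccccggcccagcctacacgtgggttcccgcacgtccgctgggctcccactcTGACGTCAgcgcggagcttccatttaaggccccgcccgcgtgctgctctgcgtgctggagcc
Positions count the start site as 0, and both strands were searched. The *Ldhc* window held TGACG at -61 and at -47 and a GC box at -78. *Ldha* held the full CRE at -12, which contains TGACG on both strands, and 3 GC boxes on the minus strand. *Gapdhs* held TGACG at 38, and *Aldoart2* CCAAT at 36. Among all 32851 promoter windows of the same length, 1.79% held TGACGTCA, 20.81% TGACG, 35.66% GGGCGG, 13.62% TATAAA and 37.41% CCAAT, and none of the 4 windows held TATAAA. *Aldoart1* is named only. A match of letters is a description and not a binding site.

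The testis genes were high in 1 tissue, whereas the somatic genes differed between tissues in steps.

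**Figure D1:**
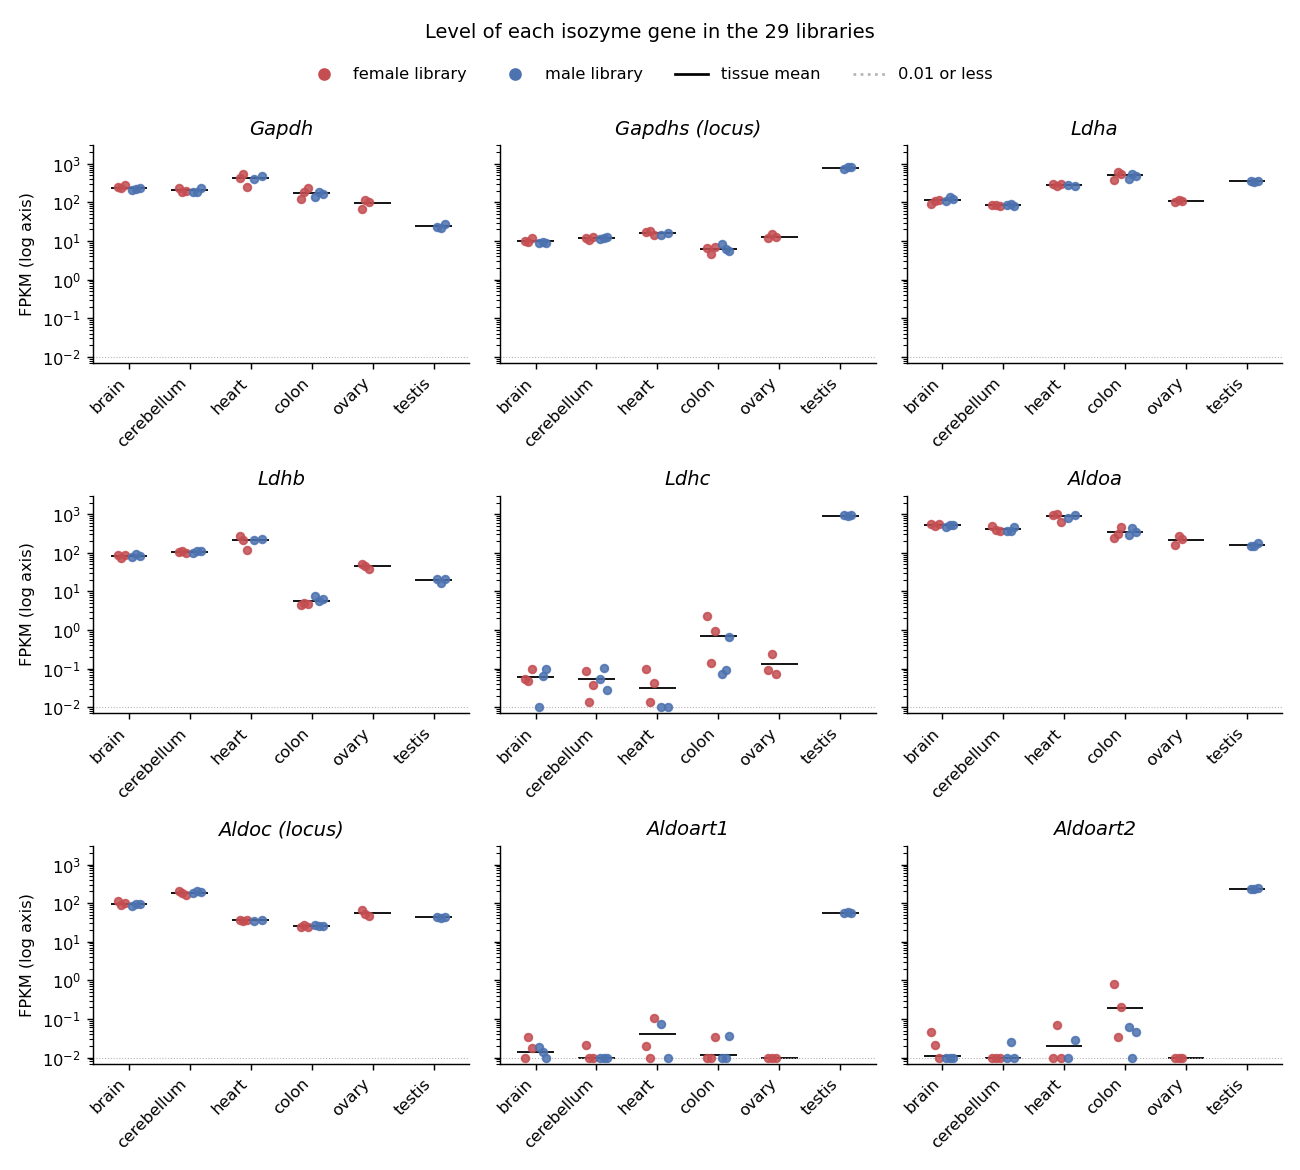
FPKM of each gene (log axis) in every library, by tissue; points are libraries (red female, blue male), lines are tissue means, and values of 0.01 or less are drawn at 0.01. The 3 testis libraries stand above all others for Gapdhs, Ldhc, Aldoart1 and Aldoart2, and Ldhb is lowest in colon.

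GAPDH changed from *Gapdh* to the *Gapdhs* locus in testis. *Gapdhs* stood at 724, 822 and 832 FPKM in the 3 testis libraries. In the other tissues its locus held 4.62 to 17.8 FPKM, with the highest value in female heart replicate 2 (1388 counts). The lowest testis library was thus 40.6 times the highest other library. *Gapdh* ran the other way, at 22.2, 22.4 and 27.8 FPKM in testis. Its next lowest tissue was ovary, with 67.2, 105 and 116 FPKM, and the libraries of both gonads did not overlap. Heart was highest with 245, 396, 440, 472 and 533 FPKM, where 245 was female heart replicate 3. Brain (lowest 212, median 235, highest 275 FPKM), cerebellum (187, 192 and 233) and colon (123, 175 and 233) overlapped one another.

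The *Gapdhs* locus made up 97.0% ± 0.303 (SD, n = 3) of GAPDH FPKM in testis. Over the other 26 libraries its share was 5.20% ± 2.90, between 2.43% and 15.2%, and ovary was at the top of that range with 12.4% ± 2.45 (n = 3). The difference of 91.8 percentage points had p = 0.000274 in a two-sided exact permutation test, the smallest that 3 of 29 libraries allow, and 0.000616 after adjustment over the 9 share comparisons. Libraries were moved freely between tissues, here and in the testis tests of LDH and aldolase below. These p-values thus take no account of the spread between tissues. The share read 88.3% ± 1.10 in testis and on average 0.886% (colon) to 3.15% (ovary) elsewhere when *Gapdh* was scaled to the windows that no other gene holds. Which tissue had most GAPDH depended on that length. Summed over both genes on the locus lengths, the level was 817 ± 61.4 FPKM in testis and 433 ± 110 in heart (477 ± 58.9 without female replicate 3). On the windows that no other gene holds the sum was 2039 ± 155 in testis, below heart (4169 ± 1077, and 4597 ± 574 without that library) and its libraries overlapped those of brain (2375 ± 214) and cerebellum (2050 ± 222).

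LDH changed to *Ldhc* in testis, while *Ldha* stayed high there. *Ldhc* had 937, 870 and 934 FPKM in the 3 testis libraries, from 78306 to 84317 counts. All other 26 libraries together had 254 counts of it, 3 of them had none, and 99.9% of its counts over all libraries were in testis. The highest of them, female colon replicate 1, held 80 counts or 2.32 FPKM, which the lowest testis library exceeded 375-fold. *Ldha*, the muscle-type subunit, was at 355, 348 and 352 FPKM in testis. That was below colon (378, 416, 497, 542, 549 and 618 FPKM) and above the 5 hearts (260, 261, 280, 301 and 308), with no overlap on either side. *Ldhb* in testis was low, at 20.5, 16.6 and 21.4 FPKM.

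*Ldhc* therefore took 71.1% ± 0.547 (SD, n = 3) of LDH FPKM in testis, *Ldha* 27.4% ± 0.696 and *Ldhb* 1.52% ± 0.152. In the other 26 libraries the *Ldhc* share was 0.0612% ± 0.119, with a highest value of 0.603%. The difference had p = 0.000274 (two-sided exact permutation test, adjusted 0.000616). On the principal transcripts the testis share was 81.1% ± 0.140. The summed LDH level was 1285 ± 43.1 FPKM in testis, 506 ± 88.6 in colon and 492 ± 54.6 in heart (508 ± 46.6 without female replicate 3). It was also highest in testis on the windows that no other gene holds, with 2428 ± 96.4 there and 1375 ± 286 in heart.

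**Figure D2:**
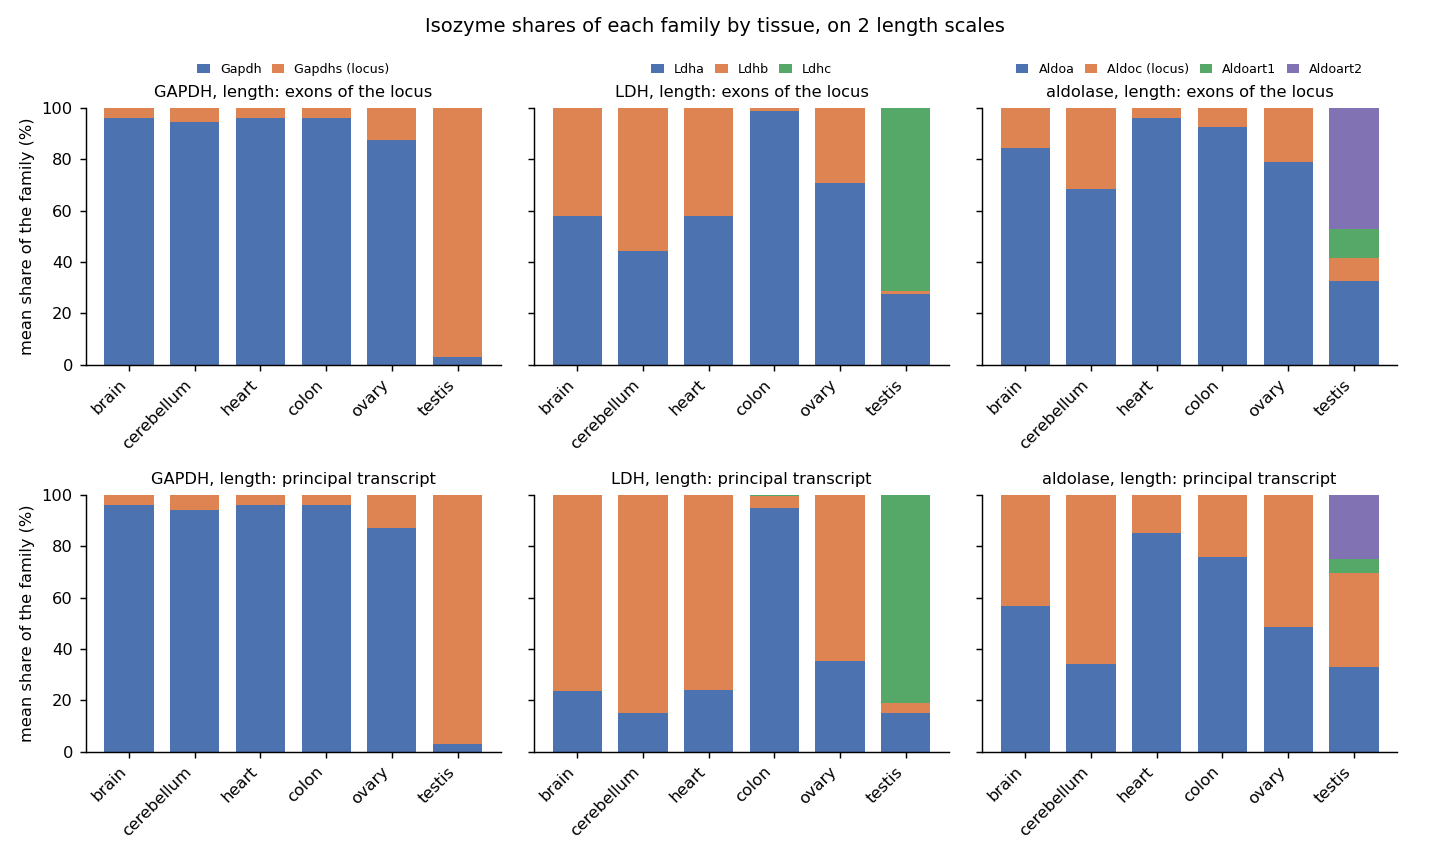
Mean share of each gene in the FPKM of its family (%, stacked to 100) by tissue, with lengths from the exons of the locus (upper row) and from the principal transcript (lower row). Testis is the tissue where Gapdhs (97.0%) and Ldhc (71.1%) prevail on the upper scale, and the height of the Ldhb and Aldoc locus bars depends on the length used.

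The aldolase retrogenes were nearly all in testis. *Aldoart2* stood at 226, 233 and 243 FPKM there and *Aldoart1* at 56.1, 57.8 and 53.9. In all other libraries together *Aldoart2* had 33 counts and *Aldoart1* 17, and each gene was at 0 in 16 of the 26 libraries. The 3 ovary libraries had 0 counts of both. In female colon replicate 1, the shallowest of all libraries, 3 counts equal 0.152 FPKM of *Aldoart2* and 0.126 of *Aldoart1*, and less in every deeper library. The lowest testis library exceeded the highest other one 278-fold for *Aldoart2* (16 counts in female colon replicate 1) and 523-fold for *Aldoart1* (5 counts in female heart replicate 3). The parent gene *Aldoa* kept 152, 153 and 183 FPKM in testis, which overlapped ovary (157, 227 and 268).

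The retrogenes together held 58.6% ± 1.73 (SD, n = 3) of aldolase FPKM in testis and 0.0182% ± 0.0593 in the other 26 libraries (p = 0.000274, two-sided exact permutation test, adjusted 0.000616). Of the testis total, *Aldoart2* gave 47.2% ± 0.855, *Aldoa* 32.8% ± 1.91, *Aldoart1* 11.3% ± 0.907 and the *Aldoc* locus 8.67% ± 0.442. The share was 30.6% with the principal transcripts, a scale on which all reads of the 8-gene *Aldoc* locus are set against the length of *Aldoc* alone. With that locus left out *Aldoart2* held 51.7%, *Aldoart1* 12.4% and *Aldoa* 35.9% of aldolase FPKM in testis, and on the principal transcripts 39.0%, 9.11% and 51.9%. Whether the retrogenes or *Aldoa* had the larger part thus depended on the length, also without the *Aldoc* locus. The aldolase sum was lower in testis (495 ± 25.2 FPKM) than in heart (912 ± 154, and 972 ± 90.5 without female replicate 3), brain (615 ± 49.0) or cerebellum (593 ± 60.1). Its mean was higher in testis than in colon and ovary, where *Aldoa* averaged 346 and 217 FPKM and the *Aldoc* locus 25.3 and 54.5.

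In a fit over all genes (edgeR, quasi-likelihood, p adjusted after Benjamini and Hochberg), testis differed from the mean of the other 5 tissues in 8 of the 9 genes, against 67.1% of the 29911 genes tested. *Gapdhs* was higher by 6.44 ± 0.123 (log2 difference ± SE), *Ldhc* by 13.89 ± 0.361, *Aldoart1* by 12.57 ± 0.264, *Aldoart2* by 14.28 ± 0.297 and *Ldha* by 1.28 ± 0.139. The values for *Ldhc* and the retrogenes depend on how the fit treats counts near 0. Both retrogenes passed the filter on low counts only through testis. *Gapdh* fell by 2.82 ± 0.298 on the log2 scale (adjusted p = 4.69e-09), *Ldhb* by 1.22 ± 0.232 (4.2e-05) and *Aldoa* by 1.14 ± 0.242 (0.000163). The *Aldoc* locus had a log2 difference of -0.26 ± 0.136 (adjusted p = 0.0923), which became 0.0231 without female heart replicate 3 at -0.28 and 0.000109 at -0.52 when scaled to library totals. The median over all genes was 0.10, and -0.16 when scaled to library totals.

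High shares of a testis copy were also measured at 2 other steps. *Pgk2*, the retrogene of phosphoglycerate kinase, had 547 ± 15.3 FPKM in testis and its parent *Pgk1* 19.3 ± 3.70, a *Pgk2* share of 96.6% ± 0.718 (n = 3), against at most 1.27% in any other library. *Pdha2*, the retrogene of the pyruvate dehydrogenase subunit, had 88.0 ± 4.57 FPKM and *Pdha1* 12.3 ± 3.01, a share of 87.8% ± 3.17, against at most 0.263%. Of 37 further genes of glycolysis, lactate and pyruvate handling, 17 were higher in testis, 11 lower and 9 passed in neither direction, where 40.4% of all genes were higher and 26.7% lower. Among the rises were *Pgk2* (15.07), *Pdha2* (14.11), *Pgam2*, the muscle phosphoglycerate mutase (7.27), *Eno4*, a testis enolase (6.29), the glucose carrier *Slc2a3* (5.28), the lactate carrier *Slc16a7* (5.25), hexokinase *Hk1* (3.94) and the locus that holds *Ldhal6b* and *Tmem242* (3.77, log2 differences). Lower were the neuronal enolase *Eno2* (-4.99), the glucose carrier *Slc2a1* (-2.76), *Pdha1* (-2.72), *Pgk1* (-2.55), the insulin-dependent carrier *Slc2a4* (-2.52), *Pfkl* (-2.03) and the lactate carrier *Slc16a1* (-1.02). By step, beside the same shares of all genes, 4 of 9 genes of glucose entry and phosphorylation were higher and 2 lower, 4 and 2 of 7 for phosphofructokinase and its regulators, 4 and 5 of 13 for the lower steps and 5 and 2 of 8 for lactate and pyruvate handling. The median log2 difference of the 37 genes was 0.16. Scaled to library totals 16 were higher and 15 lower, and the median was -0.11. The share of higher genes among all those called then went from 60.2% to 53.9%.

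**Figure D3:**
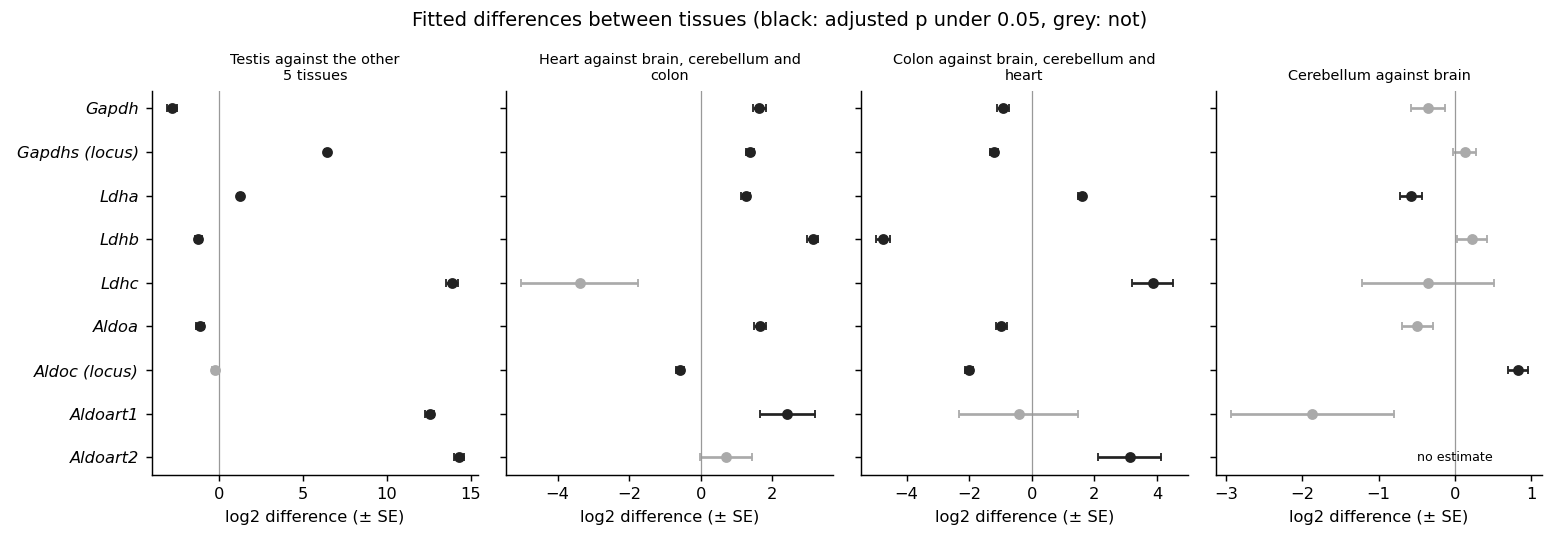
Fitted log2 differences (points) with standard errors (bars) of the 9 genes in 4 comparisons between tissues, each panel on its own axis; black marks an adjusted p under 0.05, grey the rest. In testis Aldoart2 is highest at 14.28 and Gapdh lowest at -2.82, and in colon Ldhb is lowest at -4.76; Aldoart2 in cerebellum, with 1 count there, is not drawn.

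In heart *Gapdh*, *Ldha*, *Ldhb* and *Aldoa* were higher than the mean of brain, cerebellum and colon, although *Ldha* was lower in every heart library than in every colon library. *Ldhb*, the heart-type subunit, had 119, 215, 219, 222 and 277 FPKM in heart, and the library at 119 was female replicate 3. It had 99.2 to 114 FPKM in cerebellum (median 108), 72.6 to 93.8 in brain (median 83.4) and 4.34 to 7.46 in colon (median 5.26), all below every heart library. *Aldoa* reached 638, 818, 927, 967 and 1034 FPKM in heart, the highest FPKM of the 9 genes in any tissue but testis, and again replicate 3 of the females was lowest. Of the 9 genes, 7 passed the test, against 53.1% of all genes tested. The 7 include *Aldoart1*, which passed the filter on low counts only through testis. *Ldhb* rose by 3.14 ± 0.152, *Aldoa* by 1.65 ± 0.167, *Gapdh* by 1.64 ± 0.179, *Ldha* by 1.26 ± 0.121 and the *Gapdhs* locus by 1.38 ± 0.122 on the log2 scale (edgeR, adjusted p from 1.72e-15 to 1.25e-08). The *Aldoc* locus fell by 0.57 ± 0.116. *Aldoart1* passed (2.43 ± 0.765, adjusted p = 0.00991) on 9 counts in all 5 hearts, and its adjusted p was 0.152 without female heart replicate 3 and 1.000 without male heart replicate 1.

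Levels per library total and the fit, which scales libraries by TMM factors, differed most in heart. Scaled to library totals the log2 differences were 2.54 for *Ldhb*, 1.07 for *Aldoa*, 1.05 for *Gapdh*, 0.72 for *Ldha*, 0.82 for the *Gapdhs* locus and -1.12 for the *Aldoc* locus, and all 6 passed (edgeR, adjusted p from 5.06e-16 to 4.13e-07). The median over all genes was then -0.76 in place of -0.33, and 26.6% of the called genes were higher in place of 44.4%. The part of red cell RNA in the heart values was not tested.

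Without female heart replicate 3 the heart means were 233 ± 29.2 FPKM for *Ldhb* and 461 ± 57.8 for *Gapdh* (n = 4), and the log2 differences became 3.34 ± 0.0886, 1.83 ± 0.134 for *Gapdh*, 1.82 ± 0.138 for *Aldoa*, 1.36 ± 0.114 for *Ldha*, 1.53 ± 0.0927 for the *Gapdhs* locus and -0.47 ± 0.0986 for the *Aldoc* locus. *Ldha*, at 308 FPKM the highest heart value in replicate 3, had 275 ± 19.4 FPKM without it. The part of the fat cells in these values was not tested.

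Of the 37 other genes, 19 were higher in heart and 11 lower, where 23.6% of all genes were higher and 29.5% lower, and their median log2 difference was 0.50 against -0.33 over all genes. Scaled to library totals, 14 were higher and 13 lower, with a median of -0.06 against -0.76 over all genes. Higher genes included *Pgam2* (8.81), *Eno3* (muscle enolase, 7.88), *Slc2a4* (5.02), *Pfkfb1* (3.78), *Hk2* (3.09), *Pdha1* (2.88) and *Pfkm* (muscle phosphofructokinase, 2.88). *Pgk1* had 0.73 ± 0.147 (edgeR, adjusted p = 0.000142), and 0.16 ± 0.110 (adjusted p = 0.25) when scaled to library totals. Its FPKM was 172 ± 28.9 in heart, 182 ± 22.6 in brain, 176 ± 25.7 in cerebellum and 121 ± 11.8 in colon. Lower were *Hkdc1* (-7.75), *Eno2* (-6.70), *Pklr* (-6.26), *Eno4* (-4.55), *Slc2a1* (-2.52), *Slc2a3* (-2.26), *Pgam1* (-1.68) and *Eno1* (-1.65).

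In colon the heart-type subunit was low and the muscle type high. *Ldha* was highest there of all tissues, 500 ± 89.4 FPKM (n = 6), and *Ldhb* lowest, 5.54 ± 1.15. In the fit *Ldhb* fell by 4.76 ± 0.219 and *Ldha* rose by 1.6 ± 0.113 against brain, cerebellum and heart (edgeR, adjusted p = 4.17e-16 and 2.52e-12). *Gapdh* fell by 0.92 ± 0.192, *Aldoa* by 0.97 ± 0.18, the *Gapdhs* locus by 1.2 ± 0.133 and the *Aldoc* locus by 2.01 ± 0.117. With *Ldhc* and *Aldoart2*, 8 of the 9 genes passed, against 62.1% of all genes tested, and the median over all genes was -0.13. The 8 include *Aldoart2*, which passed the filter on low counts only through testis.

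Of the 37 other genes, 13 were higher in colon and 17 lower, with a median of -0.26, where 30.6% of all genes were higher and 31.6% lower. Scaled to library totals 16 were higher and 17 lower, with a median of -0.04, and the share of higher genes among all those called went from 49.2% to 56.7%. Higher were *Pklr* (pyruvate kinase, 8.06), *Hkdc1* (6.51), *Slc16a1* (3.01), *Slc2a1* (2.91) and *Hk2* (1.81). The testis genes *Pgk2* (4.78) and *Pdha2* (2.83) also passed, on traces of 0.423 ± 0.532 and 0.0397 ± 0.0627 FPKM that were 0 in the lowest colon library, and their calls stand under the same limit as those of *Ldhc* and *Aldoart2*. Lower were *Pfkm* (-4.88), *Pgam2* (-3.52), *Eno2* (-3.32), *Slc2a3* (-2.96), *Eno4* (-2.21), *Ldhd* (-1.92), *Pdha1* (-1.67) and *Pgk1* (-0.80).

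The haploid germ cell markers reached their highest level outside testis in colon, and the calls of *Ldhc* (3.86 ± 0.647, adjusted p = 1.12e-05) and *Aldoart2* (3.13 ± 1.01, adjusted p = 0.0105) in colon came from few libraries. *Ldhc* had 80, 7 and 41 counts in the 3 female and 4, 5 and 26 in the 3 male colon libraries. *Aldoart2* had 16, 1 and 5 and then 2, 0 and 1. The 7 markers of haploid germ cells moved with them, at 293, 14 and 205 summed counts in the females and 26, 1 and 136 in the males, and none of the 7 was at 0 in the libraries with 80, 41 and 26 counts of *Ldhc*. As a percentage of the testis mean, female colon replicate 1 had 0.254% for *Ldhc*, 0.347% for *Aldoart2* and 0.145% for the markers. *Aldoart1* had 1 count or none in each colon library. Without female colon replicate 1 *Ldhc* was still higher by 3.38 ± 0.63 (adjusted p = 5.4e-05), and *Aldoart2* did not pass without male colon replicate 1 (adjusted p = 0.118). The part of germ cell RNA in these counts, and in those of *Pgk2* and *Pdha2* in colon, was not tested.

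The share of *Ldhb* in *Ldha* plus *Ldhb* put the tissues in order. It was 55.6% ± 2.11 in cerebellum (SD, n = 6), 42.2% ± 8.16 in heart (n = 5), 41.9% ± 3.37 in brain (n = 6), 29.2% ± 4.35 in ovary (n = 3), 5.25% ± 0.618 in testis (n = 3) and 1.13% ± 0.351 in colon (n = 6). The heart libraries overlapped those of brain and, through female heart replicate 3 at 27.8%, those of ovary (25.8% to 34.1%). Cerebellum, testis and colon were each apart from their neighbours, and ovary was apart from brain. Heart libraries gave 47.9%, 45.7% and 27.8% in females and 43.4% and 46.1% in males, with the lowest in female replicate 3. On the principal transcripts the shares were 84.9% ± 1.08 in cerebellum, 76.3% ± 2.36 in brain, 76.0% ± 7.09 in heart, 64.7% ± 4.66 in ovary, 19.9% ± 2.0 in testis and 4.88% ± 1.45 in colon. Which subunit prevailed in brain, heart and ovary thus depended on the length taken for the *Ldhb* locus, and the order of the other tissues did not. The means of brain and heart were close and changed places between the scales, and either of 2 libraries decided this. On the principal transcripts female heart replicate 3 had 63.4%, below the other hearts, and female brain replicate 1 had 80.8%, above the other brains (74.6% to 77.0%). With either of them left out, heart had the higher mean on both scales. Without the heart library heart had 79.1% ± 1.23 there and 45.7% ± 1.83 on the locus lengths.

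**Figure D4:**
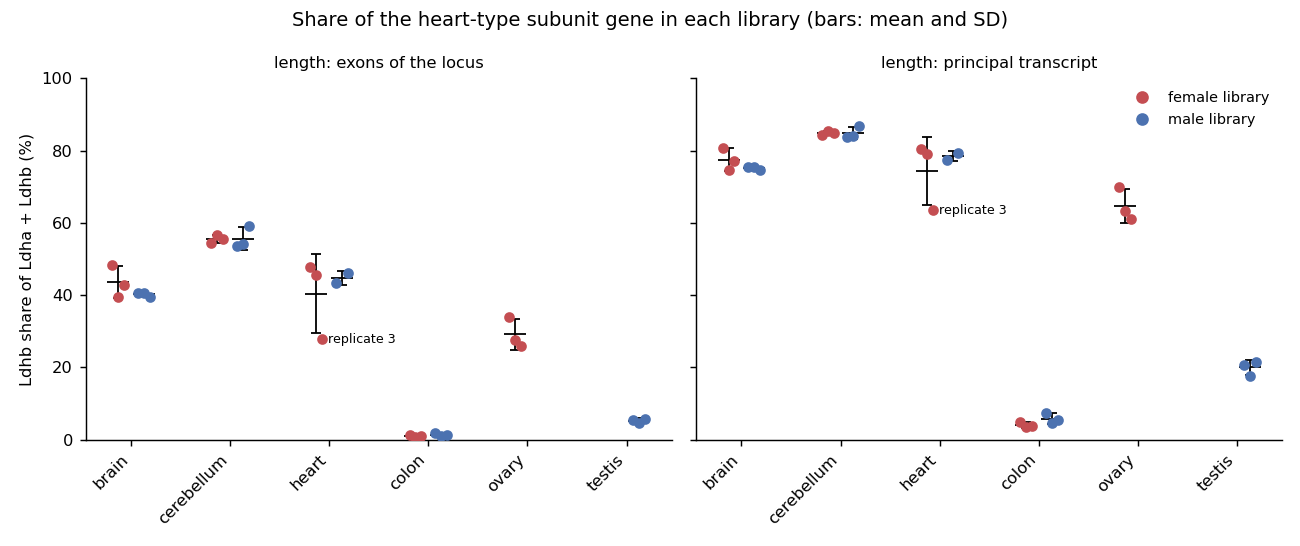
Share of Ldhb in Ldha plus Ldhb (%) in every library by tissue and sex, on the exon length of the locus (left) and of the principal transcript (right); points are libraries, bars the mean and SD of a group. On the left scale cerebellum averages 55.6% and colon 1.13%, and female heart replicate 3 lies at 27.8%, below the other hearts.

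Colon was lower than brain, cerebellum and heart together by 45.7 percentage points (two-sided exact permutation test over libraries, p = 9.91e-06, adjusted 8.92e-05). That p-value comes from moving libraries freely between tissues, so it takes no account of the spread between the 3 other tissues. Each colon library lay below every library of those 3 tissues. Cerebellum exceeded brain by 13.7 points (exact permutation p = 0.00216, adjusted 0.00325), and its 6 libraries (53.5% to 59.2%) did not overlap the 6 of brain (39.5% to 48.4%). The heart libraries (27.8% to 47.9%) lay wholly above those of colon (0.784% to 1.76%), wholly below those of cerebellum and overlapped those of brain. The test of heart against these 3 tissues together (exact permutation p = 0.385, adjusted 0.495, and p = 0.365 without female heart replicate 3) says little, because the spread of that group, 32.9% ± 23.9, is the one between 3 unlike tissues.

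Cerebellum against brain differed in 2 of the 9 genes, against 26.1% of all genes tested. *Ldha* was lower by 0.57 ± 0.147 on the log2 scale in cerebellum (edgeR, adjusted p = 0.00459), with 78.5 to 93.1 FPKM (median 85.6) against 92.1 to 138 in brain (median 114). The *Aldoc* locus was higher by 0.83 ± 0.126 (adjusted p = 1.27e-05), with 160 to 209 FPKM (median 188) against 86.7 to 111 (median 94.1). *Ldhb* had a difference of 0.23 ± 0.196 (adjusted p = 0.454), although its FPKM did not overlap, 99.2 to 114 against 72.6 to 93.8. *Aldoa* had -0.49 ± 0.207 (adjusted p = 0.0866, and 0.024 without female heart replicate 3, where all libraries share the estimate of the spread), *Gapdh* -0.35 ± 0.221 (0.28) and the *Gapdhs* locus 0.13 ± 0.148 (0.601).

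The share of the *Aldoc* locus in its sum with *Aldoa* was 31.6% ± 2.53 in cerebellum and 15.6% ± 0.580 in brain (n = 6 each, two-sided exact permutation test, p = 0.00216, adjusted 0.00325). On the principal transcripts, where the lengths of both genes change, the values were 65.8% ± 2.56 and 43.5% ± 1.07. All reads of the joined locus are then set against the length of *Aldoc* alone. Markers of astrocytes, the cells *Aldoc* is known from besides Purkinje cells, moved with it: 5 markers summed to 642 to 801 FPKM in cerebellum (median 750) and 344 to 502 in brain (median 393), and 5 markers of granule and Purkinje cells to 1484 to 2560 against 42.5 to 54.8. Neuron markers were lower in cerebellum, where 4 of them summed to 591 to 978 FPKM against 1047 to 1459 in brain. The part of these cells in the *Aldoc* result, and in those of *Ldha* and the *Ldhb* share, was not tested. Of the 37 other genes 4 were higher in cerebellum, *Hk2* (2.39), *Slc2a4* (1.79), *Pfkfb4* (0.89) and *Slc16a1* (0.39), and 9 were lower (10.8% and 15.3% of all genes), among them *Hkdc1* (-2.44), *Pgam2* (-2.33), *Slc16a7* (-1.26), *Hk1* (-0.72), *Pfkp* (-0.67), *Eno2* (-0.63) and *Pfkl* (-0.57). Scaled to library totals 7 were higher and 7 lower, and *Eno2* did not pass (-0.49, edgeR adjusted p = 0.132). Over all genes that scaling moved the share of higher genes among those called from 41.5% to 55.3%.

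**Figure D5:**
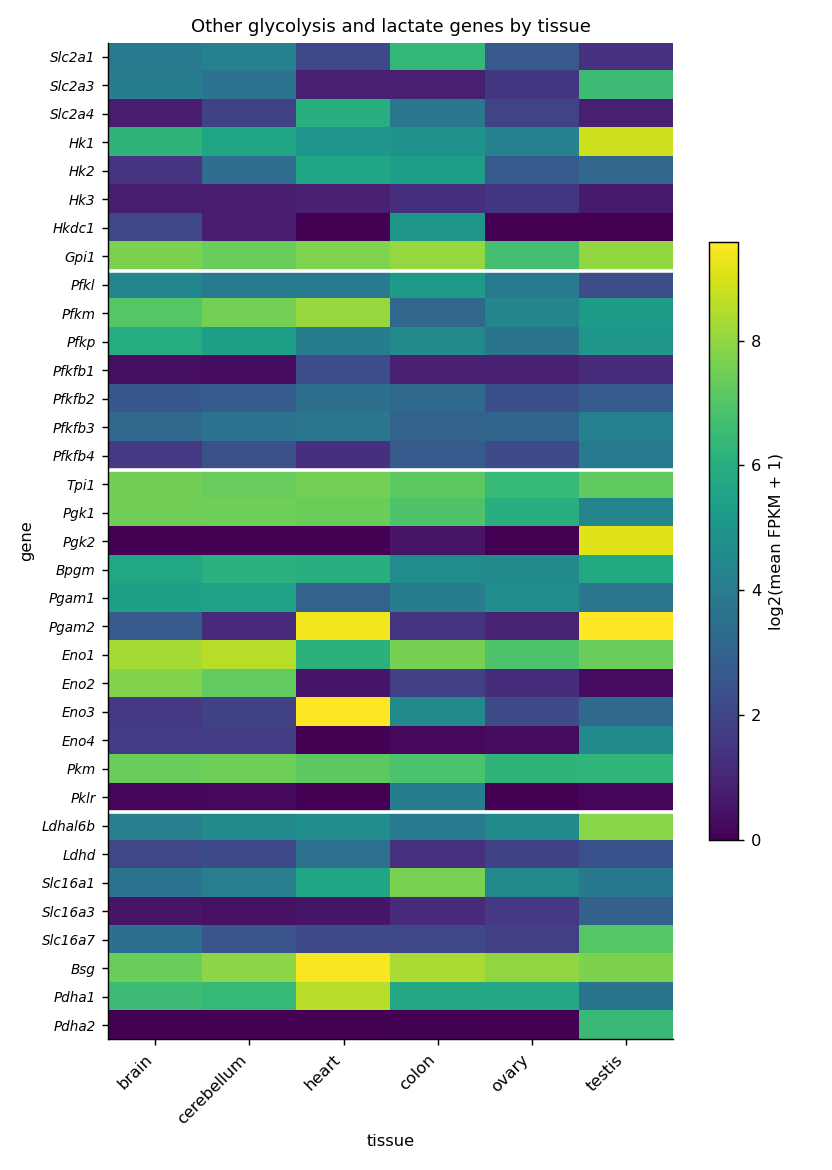
Mean FPKM by tissue of other genes of glycolysis, lactate and pyruvate handling, as log2(mean FPKM + 1) in colour; white lines part the 4 lists. Pgk2 (547 FPKM) and Pdha2 (88.0) are bright in testis only, and Pgam2 in testis and heart.

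No difference between the sexes passed the test for these genes. Over brain, cerebellum, heart and colon 0 of the 9 passed, against 0.104% of all genes tested (0.0301% higher and 0.0736% lower in males, 31 genes in all, and 2904 at an unadjusted p under 0.05). The log2 differences of male against female were 0.14 ± 0.143 for *Ldhb* (edgeR, adjusted p = 0.891), 0.03 ± 0.107 for *Ldha*, 0.01 ± 0.0913 for the *Aldoc* locus, -0.02 ± 0.109 for the *Gapdhs* locus and -0.06 ± 0.161 for *Gapdh*, the last 4 with an adjusted p of 1. *Ldhc*, with few counts outside testis, had -1.80 ± 1.04 (edgeR, adjusted p = 0.617). DESeq2 also passed 0 of the 9. The interaction of sex and tissue passed 0 of the 9 in edgeR and DESeq2, against 0.0167% of all genes (5 genes, and 2026 at an unadjusted p under 0.05). The lowest unadjusted p among the 9 was 0.19, for *Ldhc*.

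Within tissues the *Ldhb* share was 43.5% ± 4.48 in female and 40.3% ± 0.573 in male brain, 55.6% ± 1.14 and 55.6% ± 3.14 in cerebellum, 40.4% ± 11.0 and 44.8% ± 1.93 in heart and 0.925% ± 0.185 and 1.34% ± 0.381 in colon (n = 3 each, 2 for male heart). The mean difference within tissues was 0.384 percentage points (exact permutation within tissues, p = 0.931), and -1.19 without female heart replicate 3 (p = 0.223). For the *Aldoc* locus share it was 0.466 points (exact permutation p = 0.499).

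Levels that stand in no comparison above were graded as follows. *Aldoa* had 454 to 564 FPKM in brain (median 521), 363 to 483 in cerebellum (median 386) and 242 to 451 in colon (median 325). Heart lay above all of these without overlap, and each of brain, cerebellum, colon, ovary and testis overlapped the next in this order. *Ldha* in ovary (101, 109 and 118 FPKM) overlapped brain and lay above cerebellum. For *Ldhb* all 6 tissues were apart, in the order heart, cerebellum, brain, ovary (52.1, 45.0 and 37.9 FPKM), testis and colon. The *Aldoc* locus was also apart in all 6, in the order cerebellum, brain, ovary (65.2, 50.9 and 47.4 FPKM), testis (43.8, 40.9 and 43.9), heart (33.5 to 37.3) and colon (24.1 to 27.0). The *Gapdhs* locus overlapped between heart (14.0 to 17.8 FPKM), ovary (12.0 to 14.9), cerebellum (10.4 to 12.6) and brain (8.73 to 11.7), each with the next, and colon (4.62 to 8.15) lay below brain. Outside testis and colon, *Ldhc* had at most 17 counts in any library, in ovary.

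The genes with the most similar profile over all 29 libraries were found by Euclidean distance of log2(FPKM + 1). *Ldhc* lay nearest to *Akap4*, an anchoring protein of the sperm fibrous sheath (distance 0.747), and *Spz1* (0.862). *Aldoart2* lay nearest to *Kif2b* (0.440) and *Gykl1* (0.449), and *Aldoart1* to *Ankrd60* (0.200) and *D1Pas1* (0.268). The nearest to the *Gapdhs* locus was *Odf2*, of the outer dense fibres of the flagellum (3.71). Among somatic genes *Ldhb* lay nearest to *Pfkm* (3.99), *Gapdh* to *Idh3b* (3.28) of the citric acid cycle, *Aldoa* to *Uqcrh* (3.17) and *Atp5a1* (3.22) of the respiratory chain and ATP synthase, *Ldha* to *Vdac3* (2.90) and the *Aldoc* locus to *Dennd5a* (2.56). Next in order came *Hoga1*, counted with *4933411K16Rik*, for *Ldhc* (0.965), *Prr30* for *Aldoart2* (0.483), *1700018B08Rik* for *Aldoart1* (0.271) and *Pgk1* for *Gapdh* (3.58). Distances grow with level, so they rank neighbours of a gene and do not compare genes.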

How the data were processed

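The authors deposited 1 table of raw counts, made per the submitters' processing notes with HISAT2 2.0.5 and featureCounts 1.6.3 on GRCm38 from rRNA-depleted, strand-specific libraries. The study's methods do not name HISAT2, give STAR as the aligner of human data and state another version of featureCounts. By these methods only uniquely mapped reads were counted, on 13045 Iso-seq loci (550 of which join several genes) combined with ENSEMBL genes. The strand setting of the counting was not given in the sources used here. FastQC 0.11.8 and MultiQC 0.9 were also named.

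The 9 genes were matched by symbol, and the members and lists were chosen with earlier results of these data known. From the pathway list, the genes that passed are named up to 8 in each direction by size of change, together with *Pgk1*, *Pgk2*, *Pdha1* and *Pdha2*. Some genes that these rules name are not reported here, though the counts over the list include them. FPKM was computed from the counts, the library total and the union of the locus's exons in the deposited annotation, and a share is the FPKM of a gene in its family's sum. Differences were fitted with edgeR 4.0.16 (quasi-likelihood test, TMM, filterByExpr, R 4.3.3) in 1 model of 29 libraries and 10 groups over 29911 genes, with Benjamini-Hochberg adjustment and a threshold of 0.05. Shares were compared by exact permutation over libraries, adjusted over 9 comparisons. Libraries were moved freely between the tissues compared, and within tissues for the sex comparisons. Alternatives were DESeq2 1.42.0, its size factors, no filter, library totals in place of TMM (added after the data were seen), a replicate block, other lengths (2 of them added after the data were seen) and each library left out in turn. The scripts were tested on simulated data. Depth was 11742417 to 36194255 counts, and limits of 3 counts cover counting error only. All 28 pairs of libraries within a group differed by more than sampling noise. Promoters came from RefSeq (GRCm38.p6; 8 of 9 genes matched) and transcripts from GENCODE M21. Python 3.11.15 was used with numpy 2.4.6, pandas 2.3.3, biopython 1.88 and matplotlib 3.10.9.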

Additional observations from a re-analysis of the deposited data

Results flagged for a closer look

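In 6 of 48 groups of libraries tested, 1 library lay farther from the others than Dixon's limit allows. The limit is set for about 1 in 20 by chance, but that rate cannot be compared with 6 of 48. A single count against 0 elsewhere always passes the limit, and levels and shares come from the same libraries. The *Ldhb* share of *Ldha* plus *Ldhb* was 27.8% in female heart replicate 3, against 43.4% to 47.9% in the other hearts, and the *Gapdhs* locus share of GAPDH in the same library was 5.39%, against 3.24% to 3.76%. That library was also the one with 813 FPKM of fat cell markers, whose part was not tested. In female brain replicate 1 the *Ldhb* share was 48.4%, against 39.5% to 42.7% in the other brains. *Aldoart2* stood at 0.811 FPKM in female colon replicate 1, against 0 to 0.202 in the other colon libraries. In cerebellum *Aldoart1* had 0.0205 FPKM in female replicate 1 and *Aldoart2* 0.0252 in male replicate 2, 1 count each, against 0 in the other 5 libraries.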

How the results depend on the processing

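Of 653 counts and share differences recomputed under the alternatives, 611 kept their direction and their side of the threshold (for counts of genes, within 1.5 times), and of 1836 values of single genes 1794 did. When each library was left out in turn, 8 to 9 of the 9 genes passed in testis, 6 to 8 in heart, 7 to 8 in colon and 2 to 3 in cerebellum. The sex comparison called 31 genes in edgeR and 310 in DESeq2, and 18 to 52 with a library left out. The interaction called 5 genes, 3 with DESeq2 size factors, 12 without the filter, 236 in DESeq2, 1 with library totals and 0 to 14 with a library left out. Deviations from the group means of 56 same-numbered pairs of 1 sex in different tissues had a median correlation of -0.000567 (-0.259 to 0.0931). The 112 pairs with other numbers had 0.00216 (-0.236 to 0.279). These values cannot decide whether same-numbered libraries came from 1 animal, since a shared effect may be smaller than the spread between libraries. The replicate block left 1 gene of the interaction. The *Ldhb* share difference between the sexes ranged from -1.19 to 1.31 points with a library left out, and was negative without female brain replicate 2 (-0.116), female heart replicate 3 or male cerebellum replicate 3 (-0.0667). That of the *Aldoc* locus was -0.299 with raw counts. The retrogene share difference in testis was 25.96 points with raw counts, and the *Ldhb* share difference was -75.2 points in colon and 8.14 in cerebellum on windows that no other gene holds. Log2 differences near 0 changed sign: by sex, *Aldoa* (0.0025 under the replicate block, -0.086 to 0.068 with a library left out), *Aldoc* (-0.0010 with DESeq2 and its size factors, -0.0028 with library totals, -0.036 to 0.075), *Gapdh* (-0.15 to 0.0068), *Gapdhs* (-0.090 to 0.039) and *Ldha* (down to -0.020). With few counts, *Aldoart2* in heart ranged from -0.99 (without female heart replicate 2) to 1.17 and was -0.77 without male heart replicate 2, and *Aldoart1* in colon ranged from -1.61 to 0.32 (without male heart replicate 1). *Aldoc* in testis passed without the filter (-0.44, edgeR adjusted p = 0.00408), and *Ldhc* in heart passed in DESeq2 (-2.65, adjusted p = 0.012), with library totals (-3.62, edgeR adjusted p = 0.0287) and without female colon replicate 2 (-3.48, edgeR adjusted p = 0.034). The causes were not tested. The testis genes elsewhere are limited by depth, since 3 counts equal up to 0.152 FPKM.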

Other observations

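The index tau, which is 0 for even levels over the 6 tissues and 1 for a gene in 1 tissue, was 1.000 for *Ldhc*, *Aldoart1* and *Aldoart2* and 0.986 for the *Gapdhs* locus. It was 0.754 for *Ldhb*, 0.729 for the *Aldoc* locus, 0.648 for *Gapdh*, 0.624 for *Aldoa* and 0.623 for *Ldha*. Among the genes with a mean of at least 1 FPKM in some tissue, 96.2% had a lower tau than *Ldhc* and 35.7% a lower one than *Ldha*. The window around the start of the *Aldoart2* transcript held bases that align with transcribed *Aldoa* sequence: positions -110 to 23 matched the principal *Aldoa* transcript at 78.1% of 128 aligned bases. Its level was not tested against this.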
